A study of Mus musculus with 2 samples.

Results

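Trpm2 and 8 other genes of the transient receptor potential (TRP) channel family were followed in RNA of cortical cells sorted as neural progenitors. They are Trpm3, Trpm4, Trpm5, Trpm7, Trpv2, Trpc1, Trpc2 and Trpc4. They are the lines with these symbols, 9 of the 16103 genes of the table. The set was chosen with earlier results of these data known. It leaves out 10 other genes of the family that are in the table. TRPM2-KD is 1 library of GFP-positive neural progenitors from ICR mouse embryos whose cortex received a Trpm2 knockdown plasmid by in utero electroporation at embryonic day 13. Control is 1 library made in the same way with a control plasmid. The series title places TRPM2 in brain development under hyperthermia. Both libraries were sorted at embryonic day 15 and both carry the word warm in their labels. The mice are of the outbred stock ICR. Only the construct TRPM2-sh1 was used for the knockdown, per the header of that column, so effects of the construct itself and of lower Trpm2 cannot be told apart. The sources used here do not give the temperature or the number of embryos per library. With 1 library per group no difference below has a replicate check or a test, and every interval covers counting error only.

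TRP channels are cation channels of the cell surface and of internal membranes that open in response to temperature, lipids, calcium or mechanical and chemical signals. TRPM2 lets calcium in when warmth, intracellular calcium and ADP-ribose, a product of oxidative stress, act on it together. TRPC channels open downstream of receptors that activate phospholipase C, TRPM4 and TRPM5 are opened by calcium itself, and TRPM7 carries magnesium, zinc and calcium and ends in a protein kinase.

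Among the 9, Trpm7 had the highest level of the channels with a secure identity, and Trpm2, the target of the knockdown, the lowest. The stretches of 250 bases before the RefSeq starts of these 2 genes and of Trpm5, the next lowest, are shown because they differ in their content of the dinucleotide CG, which is dense in the promoters of many broadly expressed genes. They come from build GRCm38.p6, run 5′ to 3′ on the strand of the gene, and carry each CG in capitals. The Trpm7 stretch is chr2:126876262-126876511, the Trpm2 stretch chr10:77969873-77970122 and the Trpm5 stretch chr7:143094643-143094892, all on the minus strand.
Trpm7: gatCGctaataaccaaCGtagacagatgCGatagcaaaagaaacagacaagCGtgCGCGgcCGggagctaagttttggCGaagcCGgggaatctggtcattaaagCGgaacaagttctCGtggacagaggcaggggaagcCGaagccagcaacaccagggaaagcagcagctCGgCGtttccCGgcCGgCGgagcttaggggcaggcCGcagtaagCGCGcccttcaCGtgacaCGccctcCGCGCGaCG
Trpm2: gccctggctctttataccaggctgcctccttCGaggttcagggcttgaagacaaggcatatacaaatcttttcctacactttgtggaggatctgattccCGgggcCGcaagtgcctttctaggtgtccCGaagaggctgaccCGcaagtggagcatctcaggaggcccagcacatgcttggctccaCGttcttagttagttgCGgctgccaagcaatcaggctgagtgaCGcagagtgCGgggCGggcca
Trpm5: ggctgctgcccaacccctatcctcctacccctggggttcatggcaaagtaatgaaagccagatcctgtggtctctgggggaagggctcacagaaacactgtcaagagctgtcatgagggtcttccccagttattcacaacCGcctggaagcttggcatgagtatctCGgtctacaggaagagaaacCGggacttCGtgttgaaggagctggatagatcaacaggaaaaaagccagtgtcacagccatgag
CG, which reads the same on both strands, occurs 26 times before Trpm7, a number that 9.59% of the 32851 RefSeq promoters of this length reach. It occurs 10 times before Trpm2, which 37.8% of promoters reach, and 4 times before Trpm5, which 62.2% reach, and 92.1% of promoters hold at least 1. The CG content did not order the levels. The stretches before the starts of Trpv2, a gene at 2.51 RPKM in TRPM2-KD, hold 2 to 5, while that of Trpc1, at 2.69 RPKM, holds 17. Of the 9 genes, 8 matched the RefSeq table by symbol, and Trpm4 did not.

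The line named Trpc2 does not measure Trpc2 alone. Its identifier, ENSMUSG00000070425, belongs in GENCODE M21 to Xntrpc, a locus of transcripts that read through from Xndc1, a neighbouring gene, into Trpc2. That annotation counts 91.8% of the exon bases of Xntrpc as shared, on the same strand, with Xndc1 or Trpc2, for which it has identifiers of their own. The authors' table itself annotates the line with single strand break repair and damaged DNA binding, functions of no TRP channel. It also describes the line as a putative short transient receptor potential channel 2-like protein. The deposited RPKM imply a length of 8559 bases for the line, against 5673 exon bases of Xntrpc in M21. The shared percentage is thus that of the M21 model. In rodents TRPC2 is known as the channel of vomeronasal sensory neurons. Its reads are reported below as those of the Trpc2 line and are uncertain as a measure of the channel. Of the other 8 genes, Trpm5 shares 3.44% of its exon bases with Tssc4 and Trpm3 shares 2.57% with other models, on the opposite strand, and Trpm2 shares 0.73% with small models on its own strand. The sources used here do not say whether strand was used in the counting.

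The TRPM2-KD library held 20791236 counted reads and the Control library 26209192. Levels are given as RPKM, reads scaled to the length of the gene and the total of the library, and differences as the plain ratio of TRPM2-KD over Control on that scale. Markers of neural progenitors were present in both libraries. The 10 radial glia genes, among them Pax6, Sox2 and Nes, lay between 3.42 and 303 RPKM in TRPM2-KD and between 3.63 and 259 RPKM in Control. Markers of other cells were also present. The 23 microglia and macrophage genes summed to 410 RPKM in TRPM2-KD and 278 RPKM in Control, and 21 of them were higher in TRPM2-KD. They ran from 0.66 to 92.4 RPKM in TRPM2-KD and from 0.577 to 67.5 RPKM in Control, with none at 0 reads, and the defining gene Cx3cr1 was at 16.7 and 11.0 RPKM in TRPM2-KD and Control. The 8 neutrophil genes summed to 97.8 RPKM in TRPM2-KD and 61.3 RPKM in Control, with Ly6g at 0 reads in Control. Most of that sum was S100a8 and S100a9, at 37.0 and 37.6 RPKM in TRPM2-KD and 30.6 and 16.3 RPKM in Control. Of the 8 genes, 7 were higher in TRPM2-KD and 1, Camp, was lower at a ratio of 0.595. Markers of vessels and coverings went the other way: the 9 endothelial genes summed to 117 RPKM in TRPM2-KD and 144 RPKM in Control, the 7 meningeal genes to 49.5 RPKM in TRPM2-KD and 67.9 RPKM in Control, and the 5 choroid plexus genes to 299 RPKM in TRPM2-KD and 424 RPKM in Control. Of these, 7, 6 and 4 genes were lower in TRPM2-KD. Most of the choroid plexus sum was Ttr, at 283 RPKM in TRPM2-KD and 403 RPKM in Control. Of all 16103 genes, 8007 were higher in TRPM2-KD and 8096 lower. The 8 neuronal genes summed to 1676 RPKM in TRPM2-KD and 1849 RPKM in Control. The 10 radial glia genes summed to less, 618 RPKM in TRPM2-KD and 578 RPKM in Control. The levels below are thus not those of progenitors alone. In RNA from a sorted mixture, fewer cells of a type and less RNA per cell cannot be told apart.

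Trpm2 was lower in TRPM2-KD by a small margin and at a low level in both libraries. It had 155 reads in TRPM2-KD and 241 in Control, or 0.604 RPKM in TRPM2-KD and 0.745 RPKM in Control. This gives a ratio of 0.811 (0.658 to 0.996, the exact 95% counting interval, given in this form throughout). Ratios this low or lower were held by 16.9% of all genes and by 21.5% of the 4355 genes with 200 to 1000 reads over both libraries, among which Trpm2 lies. TRPM2 is also known from microglia, macrophages and neutrophils, whose markers were higher in TRPM2-KD as given above, and their part in the Trpm2 value was not tested. The level ranks low as well: 8.02% of all genes in TRPM2-KD and 10.2% in Control were at or below the RPKM of Trpm2.

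The level of Trpm2 depends on the gene length used. The deposited RPKM of Trpm2 implies a gene length of 12338 bases, against 7274 for its longest coding transcript in GENCODE M21. Scaled to the length of that transcript in place of the authors' length, Trpm2 was at 1.02 in TRPM2-KD and 1.26 in Control. The ratio between the libraries does not depend on this choice, but comparisons between genes do. With either length Trpm2 was the lowest of the 9 in both libraries.

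**Figure D1:**
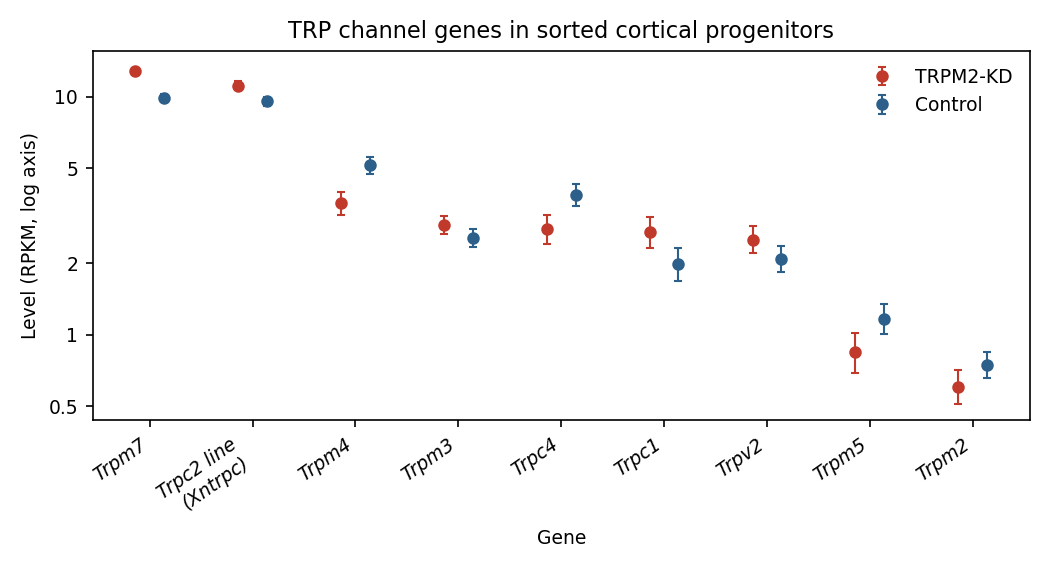
Level of each of the 9 genes in RPKM (log axis) in TRPM2-KD (red) and Control (blue), 1 library each, ordered by the level in TRPM2-KD. Bars are exact Poisson 95% intervals of the reads, which cover counting error only; Trpm7 is highest at 12.8 and 9.93 RPKM and Trpm2 lowest at 0.604 and 0.745 RPKM in TRPM2-KD and Control.

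The 9 levels spanned a wide range in the same broad order in both libraries. In TRPM2-KD the order on the RPKM scale was Trpm7, the Trpc2 line, Trpm4, Trpm3, Trpc4, Trpc1, Trpv2, Trpm5 and Trpm2. The neighbours Trpm3 and Trpc4, Trpc4 and Trpc1, and Trpc1 and Trpv2 did not differ beyond counting error, with the 4 genes between 2.51 and 2.89 RPKM. In Control the order was Trpm7, the Trpc2 line, Trpm4, Trpc4, Trpm3, Trpv2, Trpc1, Trpm5 and Trpm2, and the pairs of neighbours within counting error were Trpm7 with the Trpc2 line and Trpv2 with Trpc1. With the transcript lengths of GENCODE M21, the middle of the order changed. On this scale Trpv2 was at 3.87 in TRPM2-KD, within counting error of Trpm4 beside it, and at 3.21 in Control, below Trpm4 and Trpc4. The Trpc2 line passed Trpm7. Its authors' length of 8559 bases is longer than its M21 transcript of 4173, which raises its level on the M21 scale. For Trpm7 these lengths are 11329 and 7107, a smaller difference in proportion. On the M21 scale Trpm2 no longer differed beyond counting error from Trpm5 in TRPM2-KD or from Trpc1 in Control. For Trpc1, however, the authors' length of 3018 bases is shorter than the M21 transcript of 4559. For Trpm3 it is 8071 against 12305. The M21 scale divides the reads of both genes by more bases than the authors' length holds, which lowers their levels on it.

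The melastatin channels other than Trpm2 went in both directions. Trpm7 had 3017 reads in TRPM2-KD and 2947 in Control, or 12.8 RPKM and 9.93 RPKM, and it was higher in TRPM2-KD at a ratio of 1.29 (1.23 to 1.36). Trpm3, a channel opened by heat and by the neurosteroid pregnenolone sulfate, had 485 reads in TRPM2-KD and 539 in Control, or 2.89 RPKM and 2.55 RPKM, with a ratio of 1.13 (1.00 to 1.28). Both calcium-activated channels, which conduct sodium and potassium rather than calcium, were lower. Trpm4 had 315 reads in TRPM2-KD and 575 in Control, or 3.56 RPKM and 5.16 RPKM, at a ratio of 0.691 (0.60 to 0.794). Trpm5, best known from taste receptor cells, had 112 reads in TRPM2-KD and 196 in Control, or 0.841 RPKM and 1.17 RPKM, at a ratio of 0.72 (0.566 to 0.913). The part of the endothelial, meningeal and choroid plexus differences in these values was not tested.

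The remaining members were Trpv2, which responds to strong heat and is known from mouse macrophages, and the receptor-operated TRPC channels. Trpv2 had 234 reads in TRPM2-KD and 245 in Control, or 2.51 RPKM and 2.08 RPKM, with a ratio of 1.20 (1.00 to 1.45). The microglia and macrophage sum given above was higher in TRPM2-KD too, and its part in the Trpv2 value was not tested. Trpc1, which joins other TRPC subunits in mixed channels, had 169 reads in TRPM2-KD and 156 in Control, or 2.69 RPKM and 1.97 RPKM, at a ratio of 1.37 (1.09 to 1.71). Trpc4, one of its partner subunits, went the other way, with 201 reads in TRPM2-KD and 351 in Control, or 2.78 RPKM and 3.85 RPKM, at a ratio of 0.722 (0.604 to 0.861). The Trpc2 line had 1985 reads in TRPM2-KD and 2148 in Control, or 11.2 RPKM and 9.58 RPKM, at a ratio of 1.16 (1.10 to 1.24).

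The 9 genes differed in both directions, each by a moderate ratio. A gene was counted as different when its level in the lower library was at most 0.8 of that in the other, which is called the 0.8 threshold below. Past it, 2 of the 9 genes were higher in TRPM2-KD (Trpm7 and Trpc1), against 17.4% of all genes, and 3 were lower (Trpm4, Trpm5 and Trpc4), against 15.9% of all genes. In either direction these are 5 of 9, against 33.2% of all genes and 43.0% of the genes with 200 to 1000 reads, which hold 6 of the 9. None of the 9 reached 1.5-fold, which 17.5% of all genes did. The counting intervals of all 9 lay away from 1, 5 above and 4 below, against 56.4% of all genes. The median log2 ratio of the 9 was 0.18, beside -0.0018 for all genes, and it was -0.060 without the Trpc2 line.

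Trpm7 had the most reads of the 9 genes. Of the 4419 genes with 2000 to 8000 reads, which include Trpm7, 7.54% passed the 0.8 threshold in either direction and 2.22% had a ratio as high as that of Trpm7 or higher. The ratio of genes also followed their length, with a median log2 ratio of 0.09 in the longest of 10 groups of genes, where Trpm7 and Trpm2 belong. With the median of its length group removed, Trpm7 was at 1.21 and no longer past the threshold, and Trpm2 was at 0.762 and past it, so that 1 of the 9 was higher and 4 were lower. Trpm4 at 0.69 and Trpc1 at 1.40 kept their calls on that scale.

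**Figure D2:**
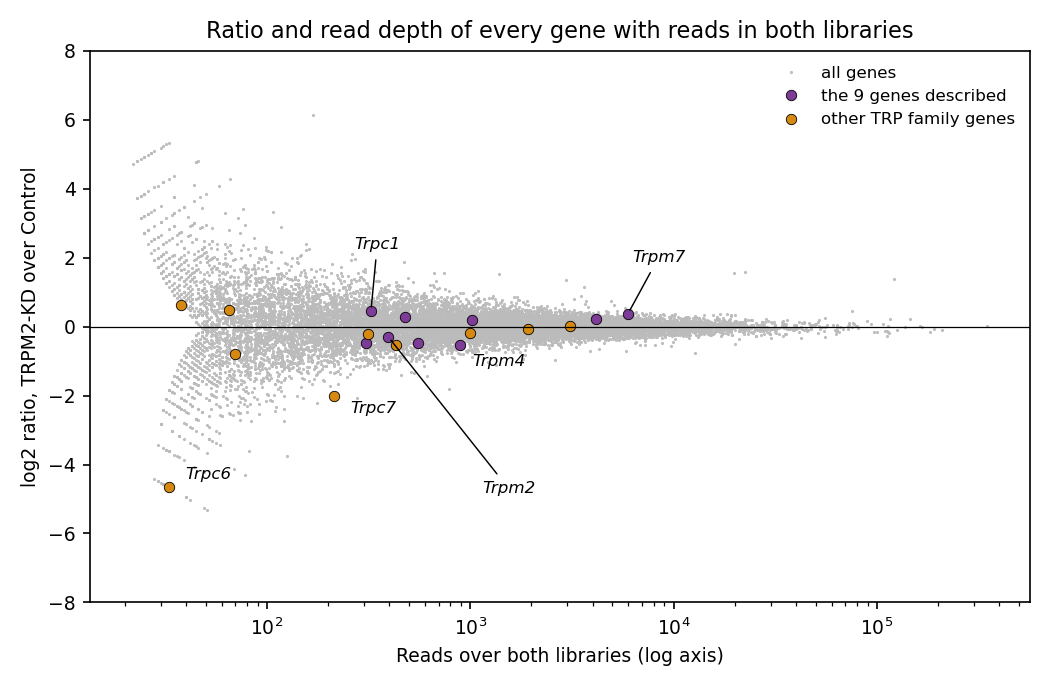
Log2 ratio of TRPM2-KD over Control against the reads over both libraries (log axis), with 1 point per gene that has reads in both. Purple points are the 9 genes described, orange points the other TRP family genes; Trpm7 lies at the upper edge of genes of its depth, Trpm2 within the spread of its own, and Trpc7 and Trpc6 at the lower edge of theirs.

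The rest of the family was taken from a list of 28 mouse TRP genes, of which 19 are in the table and the other 9 were not analysed here. Of these 19 genes 4 were higher and 7 lower in TRPM2-KD past the 0.8 threshold, against 17.4% and 15.9% of all genes, and 2 were past 2-fold, which 8.47% of all genes were. The summed level hardly differed, at 76.1 RPKM in TRPM2-KD and 77.2 RPKM in Control, a ratio of 0.986 (0.956 to 1.02). Trpm7 made up 16.8% of the sum of all 19 genes in TRPM2-KD and 12.9% in Control. Trpm2 made up 0.793% in TRPM2-KD and 0.965% in Control. The lysosomal channel gene Mcoln1 had the highest RPKM of the family, at 20.2 in TRPM2-KD and 20.1 in Control, and a ratio of 1.00 (0.933 to 1.08). Pkd2, which encodes the polycystin channel of primary cilia, was at 3.91 RPKM in TRPM2-KD and 4.14 RPKM in Control.

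Both family genes past 2-fold, Trpc6 and Trpc7, encode TRPC channels that diacylglycerol opens, and both were lower in TRPM2-KD. Trpc6 had 1 read in TRPM2-KD and 32 in Control, or 0.0159 RPKM and 0.403 RPKM, with a ratio of 0.0394 (9.7e-04 to 0.236). Trpc7 had 35 reads in TRPM2-KD and 179 in Control, or 0.457 RPKM and 1.86 RPKM, at a ratio of 0.246 (0.166 to 0.356). Of the genes with 200 to 1000 reads, 0.0459% had a ratio as low as that of Trpc7 or lower. Trpc1, Trpc4 and Trpc5, which form mixed channels with each other, summed to 5.69 RPKM in TRPM2-KD and 6.19 RPKM in Control, a ratio of 0.918, a sum chosen after the values were seen. The endothelial, meningeal and choroid plexus sums given above were lower in TRPM2-KD as well, and their part in the values of the TRPC genes was not tested.

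Of the remaining family genes, Trpc5 had 22 reads in TRPM2-KD and 48 in Control, at a ratio of 0.578 (0.332 to 0.976). Trpv6, a calcium channel of absorbing epithelia, had 128 reads in TRPM2-KD and 187 in Control and a ratio of 0.863 (0.684 to 1.09). Pkd2l2, with 407 reads in TRPM2-KD and 586 in Control, was at 0.876 (0.77 to 0.995), but it shares 10.9% of its exon bases with a gene on the opposite strand. Trpv4, a channel that senses cell swelling and warmth, had 21 reads in TRPM2-KD and 17 in Control, at a ratio of 1.56 (0.782 to 3.14). Mcoln2 had 34 reads in TRPM2-KD and 31 in Control, at a ratio of 1.38 (0.825 to 2.33). Both are among the 4 family genes counted as higher past the 0.8 threshold. The counting interval of each spans 1, so at this depth their direction is not settled.

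**Figure D3:**
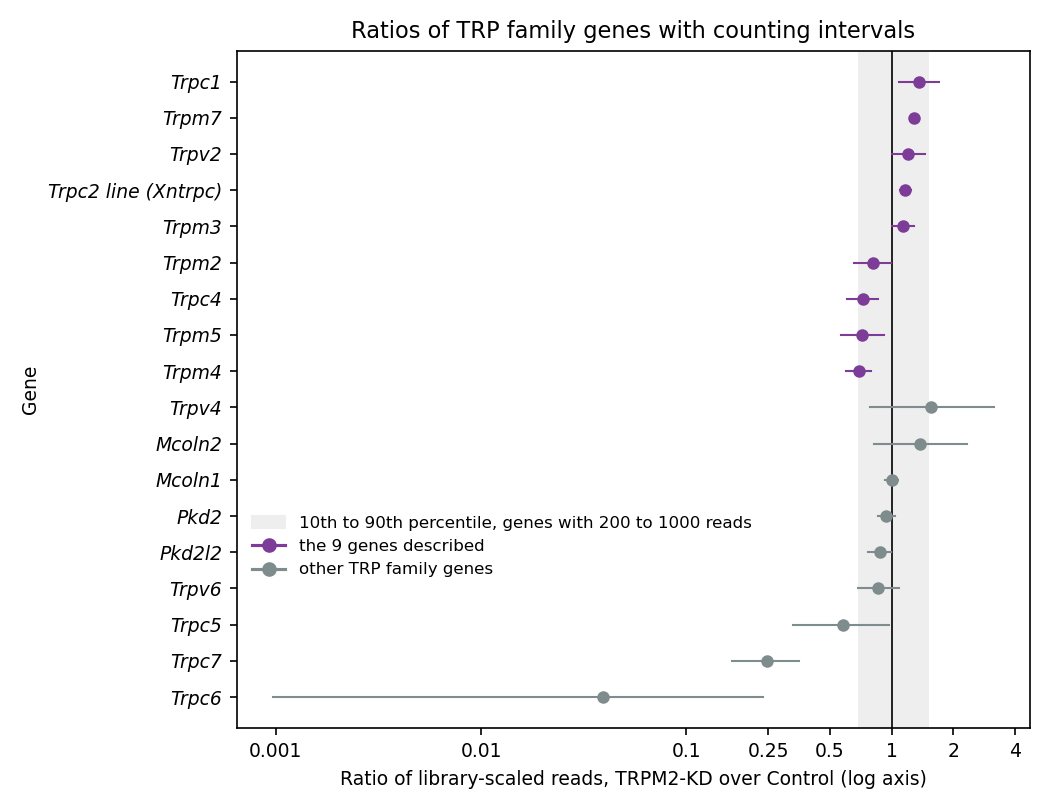
Ratio of library-scaled reads, TRPM2-KD over Control (log axis), for 18 of the 19 TRP family genes of the table, with the 9 genes described on top (purple) and the others below (grey). Lines are exact 95% counting intervals and the shaded band holds the middle 80% of genes with 200 to 1000 reads; Trpc7 at 0.246 and Trpc6 at 0.0394 lie farthest from the band, each with its whole interval below it.

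The series calls a gene changed where its p-value is below 0.05 and its log2 fold change is beyond 1 in size, and 618 genes of the authors' deposited table, 3.84% of all, meet this. Of the 9 genes 0 meet it, with p-values from 0.425 to 0.785 in the authors' deposited table. Of the 19 family genes 2 meet it. The authors' deposited table gives Trpc6 a log2 fold change of -4.52 with an adjusted p-value of 0.037, and Trpc7 one of -2.02 with a p-value of 0.00588 and an adjusted p-value of 0.363. These p-values compare 1 pair of libraries and not the conditions.

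Genes that open, gate or accompany these channels were taken from written lists. The 12 genes of ADP-ribose turnover, which make and remove the ligand of TRPM2, had a median log2 ratio of -0.11. Of them 1 was higher and 0 were lower past the 0.8 threshold, against 17.4% and 15.9% of all genes. Of genes with 2000 to 8000 reads, a depth that many of the 12 reach or exceed, 3.55% were higher and 3.98% lower. The counting intervals of 4 of the 12 lay below 1 and those of 2 above it. The gene past the threshold was Bst1, which encodes a relative of CD38, with 38 reads in TRPM2-KD and 12 in Control, at a ratio of 3.99 (2.04 to 8.39). Nudt9, an ADP-ribose hydrolase that resembles the ligand-binding end of TRPM2, had 657 reads in TRPM2-KD and 990 in Control, at a ratio of 0.837 (0.757 to 0.924). Parp1, a main source of poly(ADP-ribose), was at 0.919. Cd38, an enzyme that makes ADP-ribose from NAD, was at 0.914 with an interval from 0.728 to 1.14.

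Upstream of the TRPC channels, 4 of 21 genes of Gq, phospholipase C and diacylglycerol kinases were higher and 4 lower past the threshold, a share of 8 in 21 beside 33.2% of all genes, with a median log2 ratio of -0.0069. Gnaq was at a ratio of 0.982 and the phospholipase gene Plcg1 at 0.995. The counting intervals of 8 of the 21 lay above 1 and those of 4 below it. Of all genes, 56.4% had an interval away from 1. The largest ratios were those of Plcg2 and Plcb2, phospholipases known from blood and immune cells, and of Dgkh. Plcg2 had 202 reads in TRPM2-KD and 100 in Control (2.55, 1.99 to 3.27). Plcb2 had 160 reads in TRPM2-KD and 80 in Control (2.52, 1.92 to 3.34). Dgkh had 189 reads in TRPM2-KD and 94 in Control (2.53, 1.97 to 3.28). The microglia and neutrophil sums given above were higher in TRPM2-KD as well, and their part in these values was not tested. Dgkg, another diacylglycerol kinase, had 53 reads in TRPM2-KD and 126 in Control, at a ratio of 0.53.

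Among 17 genes of calcium stores and store-operated entry, 4 were higher and 1 was lower past the threshold, 5 in all beside 33.2% of all genes, with a median log2 ratio of 0.15. The subunits of the store-operated channel differed in direction. Orai1 had 157 reads in TRPM2-KD and 313 in Control, or 3.29 RPKM and 5.21 RPKM (0.632, 0.519 to 0.768). Orai3 had 286 reads in TRPM2-KD and 199 in Control, or 6.42 RPKM and 3.54 RPKM (1.81, 1.51 to 2.18). The store sensor Stim1 was at 0.963, the release channel genes Ryr2 and Itpr2 at 1.44 and 1.40.

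Of 17 genes of magnesium transport, which act beside TRPM7, 5 were higher and 2 lower past the threshold, beside 17.4% and 15.9% of all genes. Magt1 had 1095 reads in TRPM2-KD and 1043 in Control, at a ratio of 1.32 (1.21 to 1.44). Nipa1 had 812 reads in TRPM2-KD and 760 in Control, at 1.35 (1.22 to 1.49). Cnnm1 was at 0.60 and Cnnm2 at 1.26. The 20 genes whose proteins bind TRP channels or are acted on by the TRPM7 kinase were counted as well. They held 0 past the 0.8 threshold in either direction, beside 33.2% of all genes. Of genes with 2000 to 8000 reads, a depth that many of the 20 reach or exceed, 7.54% passed it. The lowest ratio of the 20 was that of Abcc8, the sulfonylurea receptor that pairs with TRPM4, at 0.802 (0.749 to 0.859). Abcc8 had 1369 reads in TRPM2-KD and 2152 in Control, so that both partners were lower. The median log2 ratio of the 20 was 0.013.

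**Figure D4:**
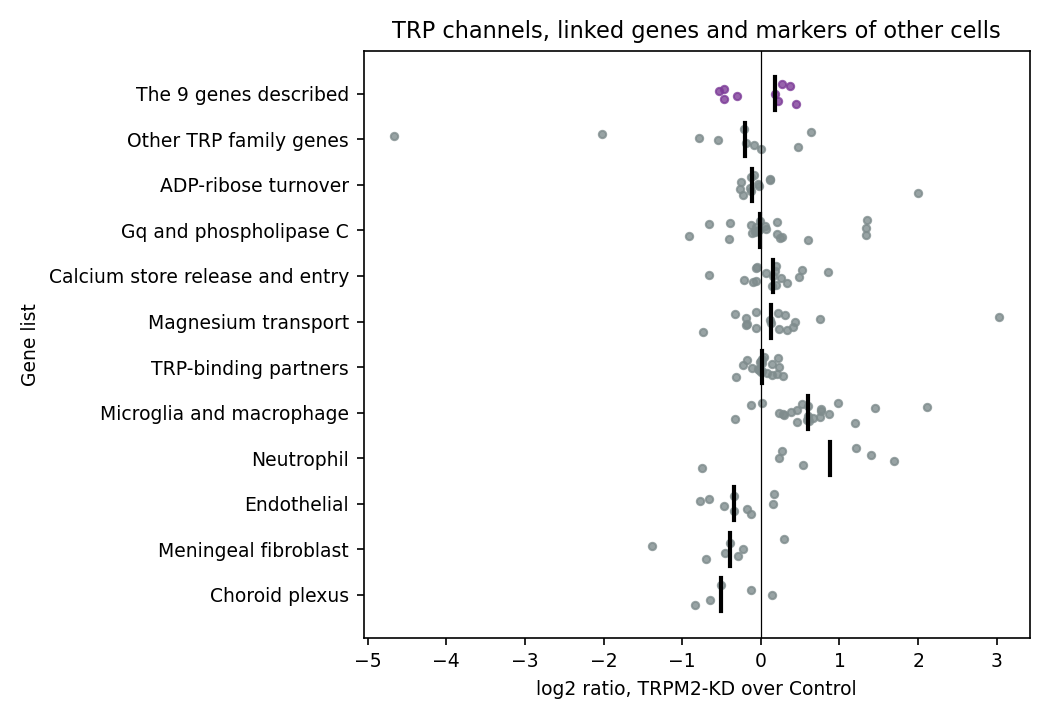
Log2 ratio of TRPM2-KD over Control for each gene of the TRP lists, of the linked pathways and of the markers of other cell types, with 1 point per gene and a black bar at the list's median. Ly6g, with 0 reads in Control, is not drawn; the medians are 0.18 for the 9 genes described, -0.20 for the other TRP family genes and 0.60 for microglia and macrophage genes.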

How the data were processed

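RNA was sequenced from 2 libraries, 1 of TRPM2-KD and 1 of Control. The authors deposited 1 table with raw read counts and RPKM values per gene, and their own log2 fold changes, log2 CPM and p-values, per the file headers. The submitters' processing notes name, without roles, the build mm9 with HTSeq 0.6.0, TopHat2 2.0.12 and Bowtie2 2.2.3. The sources used here do not give the annotation, the use of strand or the tool behind the authors' comparison. The deposited RPKM imply 1 length per gene, which was compared with GENCODE M21, an annotation of the later build GRCm38. Of the identifiers, 98.9% matched it without their version. No position was carried between builds.

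Ratios were taken over library totals, with exact conditional binomial 95% intervals (SciPy 1.17.1), and tested on simulated data. Levels have exact Poisson intervals. The interval of the summed family level is a normal approximation on the log scale. All intervals cover counting error only, since each group has 1 library. Where PCR copies count as separate reads, the intervals are too narrow even for that. Other scalings came from edgeR 4.0.16 and DESeq2 1.42.0. The members and lists were chosen with earlier results of these data known. Named are the members, the other family genes in the table except 1 that is not reported here, and up to 4 genes per list with the largest absolute log2 ratio among those with 100 reads or more. Cx3cr1, Ly6g, S100a8, Camp, Bst1, Parp1, Gnaq, Plcg1, Stim1, Pax6, Sox2 and Nes were named outside that rule. The dependence on scaling, fold, filter, pseudocount and gene length was examined. The groups of 200 to 1000 and 2000 to 8000 reads were chosen after seeing the data.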

Additional observations from a re-analysis of the deposited data

How the results depend on the processing

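Neither TMM, median-of-ratios nor upper-quartile scaling moved the count of the 9 genes past the 0.8 threshold (5) or of the 19 family genes (11), and each left the Trpm2 ratio at 0.811 or 0.812. Over all alternatives run, the Trpm2 ratio lay between 0.762 with the length trend removed and 0.919 on log2(RPKM + 1). Of the 9 genes 0 were past 1.5-fold, 0 past 2-fold, 3 past the 0.8 threshold on log2(RPKM + 1), and 9 had a counting interval away from 1. Of the 19 family genes the same settings gave 4, 2, 6 and 14, and 7 were counted among genes with 100 reads or more, as with a mean RPKM of 1 or more, where fewer genes are counted. Of all genes they gave 2822, 1364, 3494 and 9087, against 5352 past the 0.8 threshold. Among genes with 100 reads or more, 3697 of 14125, or 26.2%, were past it, and with a mean RPKM of 1 or more 3732 were. On log2(RPKM + 1), which understates differences of low genes, Trpc6 was at a ratio of 0.724 and Trpc7 at 0.51. Without the Trpc2 line, an alternative chosen after seeing the data, the other 8 genes had a median log2 ratio of -0.060. Of 72 gene ratios under another scaling or with the length trend removed, 70 stayed within their counting interval. Those of Trpm2 are not among the 72. Trpm7 at 1.21 and the Trpc2 line at 1.09, both with the length trend removed, did not stay within it. The other scalings shifted log2 ratios by at most 0.00205. A ratio could therefore hardly leave its interval under them, and most of the 72 say little about robustness. No paired analysis was possible because each group has 1 library. At 155 reads in TRPM2-KD and 241 in Control, depth limits what can be said of Trpm2, and without replicates no spread between animals is known.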

Other observations

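The authors' table marks 33 genes with the ontology term calcium channel activity. Outside the TRP family it marks 22, of which 5 were higher and 3 lower in TRPM2-KD past the 0.8 threshold, beside 17.4% and 15.9% of all genes, with a median log2 ratio of 0.053. These counts were made after the data were seen.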
